A study of Mus musculus with 11 samples.

Results

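Cells of the mouse mammary carcinoma line 4T1 in culture were compared after 2 kinds of treatment, the activated cyclophosphamide 4HC and the cytokine IFNβ, set directly against each other with the control cells left out of the ratio. A gene was taken up when its mean expression reached 1 FPKM (fragments scaled to transcript length and to the library's mapped reads) with either treatment, which gave 10659 of the 24197 gene rows. Of these genes, 9752 reached 1 FPKM with both treatments, 215 were under 1 FPKM with 4HC and 692 were under 1 FPKM with IFNβ. The 4HC cultures (3 libraries) received 5 uM drug for 4 h and were collected 68 h after its removal, at 72 h. The IFNβ cultures (3 libraries) received 250 U/mL for 4 h and were collected 2 h later according to the sample labels and the study's methods, although the protocol text deposited with the samples gives 68 h. The study's methods also give them a higher seeding density. Drug, time after exposure and cell density therefore changed together, and their parts in any difference cannot be told apart. Beside these groups stand the vehicle control, collected at 72 h (2 libraries), and cells given 4HC with an antibody that blocks the receptor subunit IFNAR-1 (3 libraries). These 2 groups are quoted as group means for orientation and do not enter the test. All cells were of 1 line in culture, with no host cells.

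4HC (4-hydroperoxycyclophosphamide) breaks down in culture medium to the same active species that the liver makes from cyclophosphamide, an alkylating drug whose mustard crosslinks DNA. IFNβ, a type I interferon, binds the receptor IFNAR1/IFNAR2. The receptor's kinases JAK1 and TYK2 then phosphorylate transcription factors, among them STAT2, which with IRF9 bind the interferon-stimulated response element (ISRE) in the promoters of interferon-stimulated genes (ISGs). Damaged cells can also make interferon themselves, through sensors of nucleic acid in the cytosol, and can turn on NF-κB, which drives chemokine and cytokine genes through κB sites.

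The deposited expression table holds 1 mean FPKM per group, printed to 11 decimals. Because each mean is a sum of whole read counts over fixed library sizes, the values of the single libraries could be worked back from it. The recovery gave one answer in both groups for 9516 genes (89.3% of the 10659), and these were tested. For 891 further genes several answers remained, of which 1 alone kept the libraries of a group within 2-fold of each other. Their library values are given with no test. For the last 252 genes only the authors' mean is given in at least 1 group. The 1143 untested genes were mostly abundant, with a median of 40.9 FPKM with 4HC against 5.88 FPKM for the tested ones. The libraries are called a, b and c in order of falling depth, since nothing ties them to the labelled replicates. Depth is not given with the table and was inferred from receptor genes taken to hold 1 read. So inferred, it ran from 32094187 to 39340298 reads with 4HC and from 34685012 to 49339757 reads with IFNβ. The median coefficient of variation across the 3 libraries was 8.7% and 9.38%, respectively. In each treatment 1 library stood apart for a group of genes. 4HC library c was higher in ISGs, and IFNβ library a was higher in stress response genes. Both are followed below.

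Of the 9516 tested genes, 1059 were at least 2-fold higher with 4HC (11.1%) and 367 at least 2-fold higher with IFNβ (3.86%), at a limma adjusted p below 0.05. At 4-fold the counts were 265 and 61. Counts of called genes in the lists below stand against the shares of 11.1% and 3.86%. The difference is given for single genes as log2 of FPKM + 0.1 with 4HC minus the same with IFNβ, so that a positive value is higher with 4HC. Medians over lists of genes are of the same difference between the group means, for every list member that reached 1 FPKM. Over all 10659 genes the median was 0.04, with an interquartile range of -0.34 to 0.49. The central 95% of genes lay between -1.17 and 2.02, a longer tail on the side of 4HC. For scale, the 4HC mean against the mean of 4HC with the antibody, cells given the same drug for the same time, had a central 95% of -0.27 to 0.38. The 3 libraries of one treatment did not overlap those of the other in 6363 tested genes (66.9%), so a lack of overlap was common. At any size, 33.1% of tested genes passed the adjusted p on the side of 4HC and 27.4% on that of IFNβ. The filter on the higher group shapes these counts, since 465 of the 1059 genes higher with 4HC were under 1 FPKM with IFNβ, as against 80 of the 367 in the other direction under 1 FPKM with 4HC. The direction of such a gene was set by the filter, so its difference and p-value are a description. Loci of small RNAs and ribosomal RNA and rows whose symbol had become a date made up 29 of the 1059 and 75 of the 367. They are not discussed by name, as a short RNA locus inside a longer gene can collect that gene's reads.

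**Figure D1:**
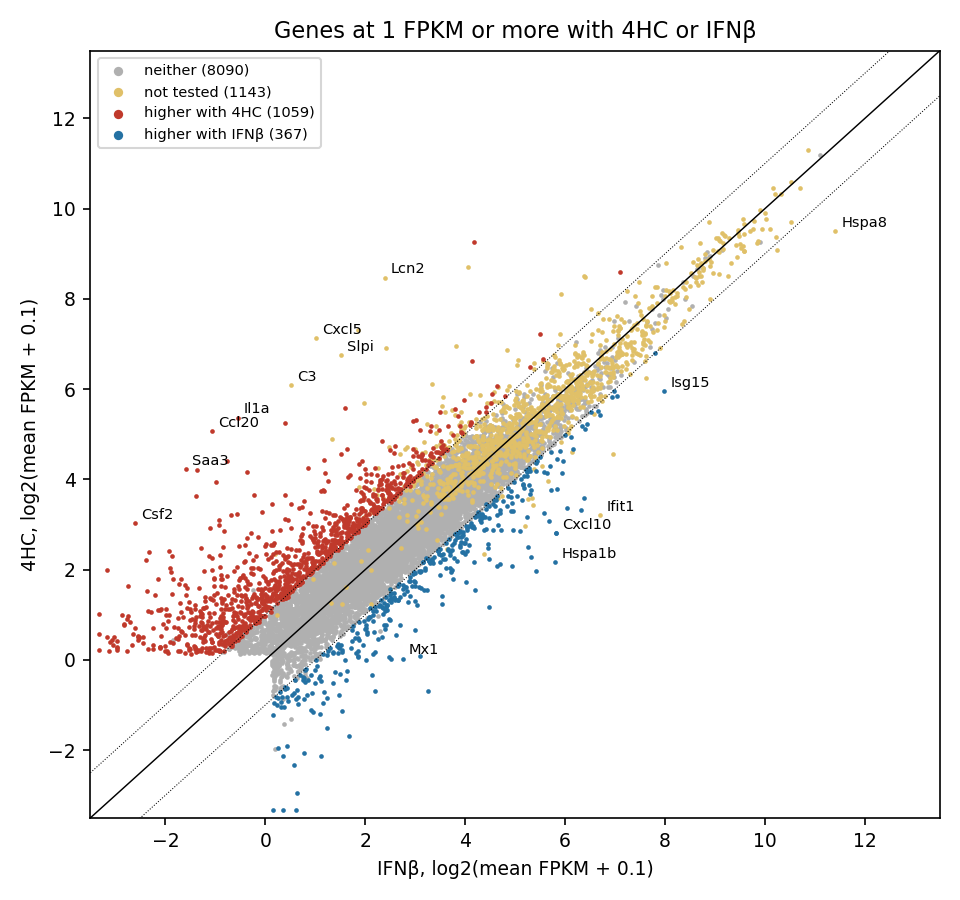
Mean FPKM of each gene with IFNβ (horizontal) against 4HC (vertical), both as log2(mean FPKM + 0.1), for the 10659 genes, with the diagonal and dotted lines at 2-fold. Colours mark the 1059 genes called higher with 4HC and the 367 called higher with IFNβ, which fall on opposite sides of the diagonal, with Ccl20 and Il1a among the genes farthest above it and Ifit1 and Hspa1b among those farthest below.

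Set beside the control means, the called genes were of several kinds. The 1059 genes higher with 4HC had median levels of 1.64 FPKM in control cells, 3.84 with 4HC, 1.22 with IFNβ and 3.98 when the antibody was added to 4HC. In 621 of them the 4HC mean was at least 2-fold above control, and in 181 the IFNβ mean was at least 2-fold below control. The call thus joined genes with a 4HC mean above control to genes with an IFNβ mean below control. The control was collected at 72 h, as the 4HC cells were, and not at the time of the IFNβ cells. Treatment and time therefore cannot be told apart in IFNβ against control, here or below. The 367 genes higher with IFNβ had medians of 3.27 FPKM in control cells, 3.26 with 4HC, 8.55 with IFNβ and 2.65 when the antibody was added to 4HC. In 198 of these the IFNβ mean was at least 2-fold above control, while the 4HC mean was at least 2-fold above control in 74 and below it in 64. With the antibody present, the 4HC mean remained at least 2-fold over IFNβ in 970 of the 1059 and at least 2-fold under it in 323 of the 367.

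**Figure D2:**
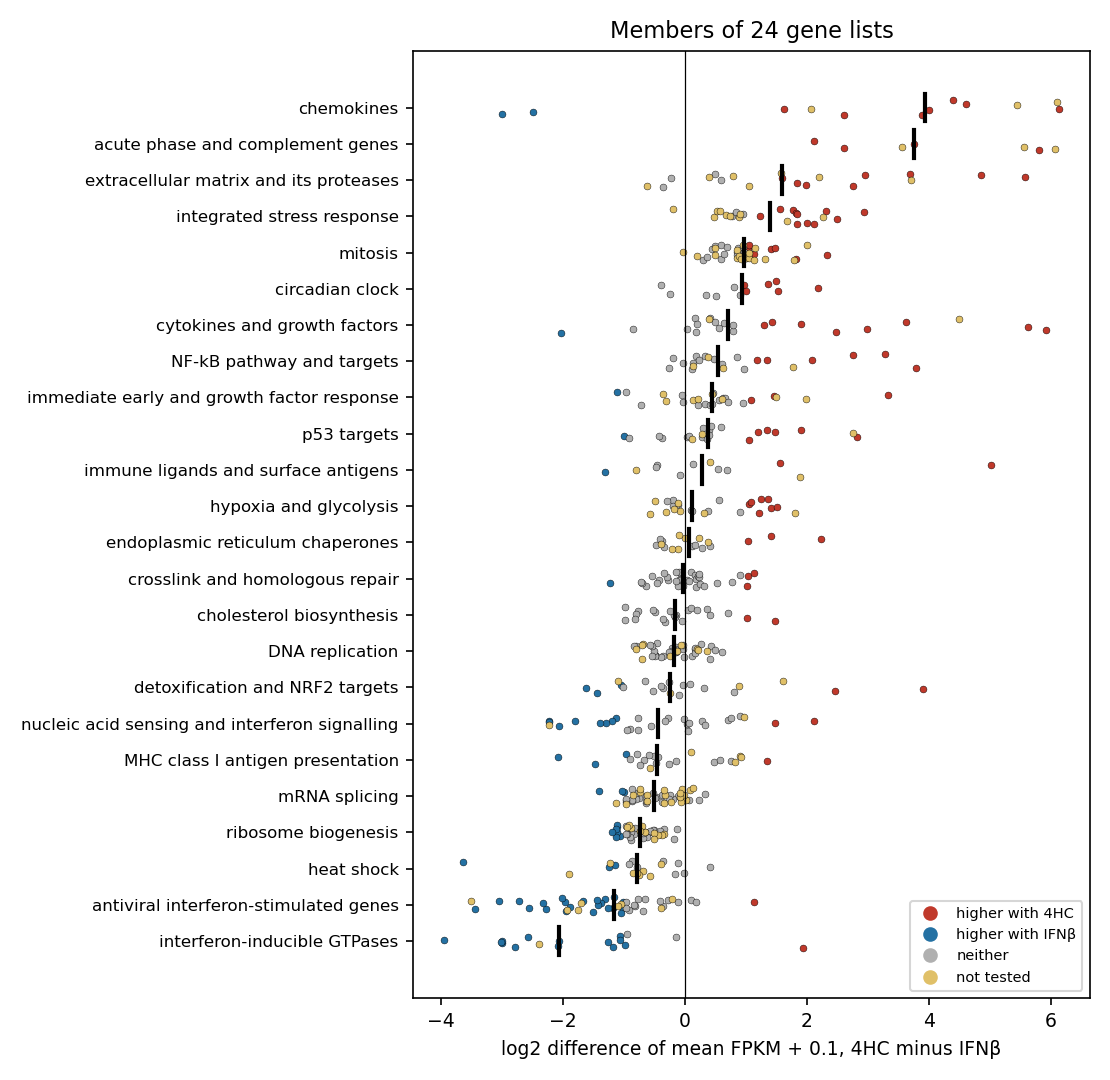
Log2 difference (4HC minus IFNβ) of the members of each gene list, from the group means, 1 point per gene coloured by its call and a bar at the list's median. Interferon-inducible GTPases have the lowest median, -2.06, and chemokines the highest, 3.95, against 0.04 for all genes. With every list gene above 0 counted these become -1.26 and 2.08.

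Promoter sequence of some of the genes that moved most is shown here, because the letters that interferon and NF-κB signalling act through can be read in it. For each gene 30 bases upstream of the start are printed 5′ to 3′ on the gene's own strand, from RefSeq promoters of build GRCm38.p6, with the matched letters in capitals. The ISRE core was searched as GAAANNGAA on both strands, so that a match on the other strand reads TTCNNTTTC. Mx1, Usp18, Cmpk2, Irf7, Oasl1, Cxcl11, Tap1, Dhx58 and Trim21 were also searched and gave no match or had no promoter sequence. The core is shown for these ISGs that were higher with IFNβ:
Ifit1 (chr19:34640795-34640824, plus strand): cagtctcagtTTCAGTTTCtcactgctgac
Ifit3 (chr19:34583398-34583427, plus strand): ttaagtctgtTTCAGTTTCtactttcctct
Isg15 (chr4:156200871-156200900, minus strand): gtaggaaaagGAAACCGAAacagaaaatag
Cxcl10 (chr5:92349083-92349112, minus strand): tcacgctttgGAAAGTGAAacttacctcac
Igtp (chr11:58199512-58199541, plus strand): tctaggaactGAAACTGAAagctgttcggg
Irgm2 (chr11:58214903-58214932, plus strand): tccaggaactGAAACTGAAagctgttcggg
Gbp2 (chr3:142620595-142620624, plus strand): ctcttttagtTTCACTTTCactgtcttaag
Ccl2, Ccl5, Ccl20, Cxcl5, Il1a, Saa3, Lcn2, C3, Csf2, Csf3, Nos2, Tnf and Nfkbiz were searched for κB letters and gave no match or had no promoter sequence. The κB letters GGANTTTCC, which read GGAAANTCC on the other strand, are shown for these inflammatory genes that were higher with 4HC:
Cxcl1 (chr5:90891165-90891194, plus strand): ctgtactccgGGAATTTCCctggcccggag
Cxcl2 (chr5:90903793-90903822, plus strand): ctgagctcagGGAATTTCCctggtccccgg
Cxcl3 (chr5:90786019-90786048, plus strand): agctgcggggGGAATTTCCccagcccgggc
Icam1 (chr9:21015777-21015806, plus strand): acttcagtttGGAAATTCCtagatcgcagg
Il6 (chr5:30013061-30013090, plus strand): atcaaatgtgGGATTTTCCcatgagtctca

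The letters of the ISRE core lay in the 250 bases before the start in 16 of the 27 genes that were 4-fold higher with IFNβ and had a promoter in the table (59.3%). The share was 44 of 228 (19.3%) among all genes called higher with IFNβ and 66 of 790 (8.35%) among those called higher with 4HC, with 20 of 180 (11.1%) at 4-fold. It was 548 of 7389 (7.42%) among all tested genes with a promoter and 8.18% of the 27025 promoters. The κB letters were rarer, in 14 of the 790 genes higher with 4HC (1.77%), in 5 of the 228 higher with IFNβ (2.19%) and in 1.35% of tested genes. At 4-fold they were in 8 of 180 (4.44%) and 3 of 27 (11.1%). The AP-1 letters TGANTCA, which FOS and JUN family dimers bind, were in 87 of the 790 genes higher with 4HC (11%), in 14 of the 228 higher with IFNβ (6.14%), in 5.41% of tested genes and in 7.82% of all promoters. At 4-fold they were in 28 of 180 (15.6%) and 5 of 27 (18.5%). These matches are a description of the letters and not of binding. Of the 61 genes 4-fold higher with IFNβ, only 27 had a promoter in the table.

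Antiviral ISGs were higher with IFNβ as a group, though the 4HC cells expressed nearly all of them. Of 45 list members at 1 FPKM, 37 were tested, and 22 were called higher with IFNβ, 1 higher with 4HC and 14 neither. In 1 of the 22, Mx1, the 4HC mean was under 1 FPKM, so that the filter set the direction. The median difference was -1.16. Summed over all 48 list genes in the table, the level was 250.9 FPKM in control cells, 950.4 with 4HC, 1973.5 with IFNβ and 336.3 when the antibody was added to 4HC. The tested members summed to 442, 478 and 658 FPKM in 4HC libraries a, b and c, and to 1169, 1390 and 1176 FPKM in the IFNβ libraries. The highest 4HC library thus stayed under the lowest IFNβ library. Without 4HC library c, 29 of the 37 were called higher with IFNβ and none higher with 4HC.

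Mx1, a GTPase that blocks influenza virus and its relatives, stood at 0.359, 0.432 and 1.97 FPKM in the 4HC libraries and at 7.29, 6.85 and 5.73 FPKM in the IFNβ libraries. The groups were apart, but 4HC library c was several times the other two. The 4HC mean of Mx1, 0.92 FPKM, lay under 1 FPKM, so that the filter set its direction. The difference was -3.07 (SE 0.49, limma adjusted p = 0.00081), -3.76 without 4HC library c and -2.67 without 4HC library a. Ifit3, whose protein joins a complex that binds viral RNA, had 2.99, 3.89 and 7.39 FPKM with 4HC and 38.2, 48.4 and 33.6 FPKM with IFNβ, an 8.42-fold difference of means (log2 -3.13, SE 0.29, limma adjusted p = 5.8e-05). Its neighbour Ifit1 had means of 9.11 FPKM with 4HC, 105 with IFNβ and 0.512 in control cells, and was not tested. Both showed the same order of groups, with 4HC between control and IFNβ.

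Cmpk2, a mitochondrial nucleotide kinase, was 11.1-fold higher with IFNβ, at 39.1, 52.2 and 35.9 FPKM as against 2.63, 3.46 and 5.33 FPKM with 4HC (log2 -3.48, SE 0.24). The adjoining gene Rsad2, which encodes the antiviral enzyme viperin, was 6.01-fold higher, at 23.9, 30.8 and 22.8 FPKM as against 3.16, 3.8 and 5.93 FPKM. Isg15, a ubiquitin-like modifier, stood at 48, 54.2 and 84.8 FPKM with 4HC and 220, 283 and 253 FPKM with IFNβ (log2 -2.05, limma adjusted p = 7.6e-05). In each of these genes library c was the highest of the 4HC libraries and still lay below every IFNβ library.

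The 2′-5′ oligoadenylate synthetase family, some members of which activate RNase L on double-stranded RNA, lay mostly on the side of IFNβ. Oasl2 was called higher with IFNβ (log2 -1.30). Oas1b (-0.92), Oas3 (-0.84) and Oas1g (-0.81) passed the adjusted p on that side at under 2-fold. Oasl1 was higher with IFNβ, at 46.3, 46 and 38 FPKM as against 16.4, 18.3 and 28.4 FPKM (log2 -1.08, SE 0.19, limma adjusted p = 0.0014), and fell under the 2-fold bound without 4HC library a (-0.920) or b (-0.998). Oas1a had 11.3, 12.4 and 19.5 FPKM with 4HC and 19.9, 17.1 and 18.6 FPKM with IFNβ, overlapping groups that the test did not separate (log2 -0.40, SE 0.18, limma adjusted p = 0.089), though without 4HC library c it passed (log2 -0.64, limma adjusted p = 0.0012). Oas2 went the other way. It was the only ISG on the list called higher with 4HC, at 4.44, 4.25 and 9.3 FPKM as against 2.7, 2.96 and 2.34 FPKM with IFNβ (log2 1.05, SE 0.27, limma adjusted p = 0.0092), from a control mean of 0.0192 FPKM and 0.0724 FPKM with the antibody. Its difference fell under the 2-fold bound without 4HC library c (0.69) or IFNβ library c (0.96).

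A few other ISGs reached much the same level with both treatments. Lgals3bp, a secreted glycoprotein that binds galectin, stood at 32.7, 32.5 and 40.6 FPKM with 4HC and 34.3, 33.7 and 31.1 FPKM with IFNβ (log2 0.09, SE 0.10). Zbp1, a sensor of Z-form nucleic acid, had 6.23, 7.09 and 12 FPKM with 4HC and 10.1, 10.1 and 7.11 FPKM with IFNβ (log2 -0.15, SE 0.24), and the sign turned without 4HC library a (0.032). In control cells the same genes stood at 4.17 and 0.228 FPKM. Bst2, or tetherin, which holds budding virus at the cell surface, had means of 169 and 196 FPKM against a control mean of 26.1 FPKM, and was not tested.

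**Figure D3:**
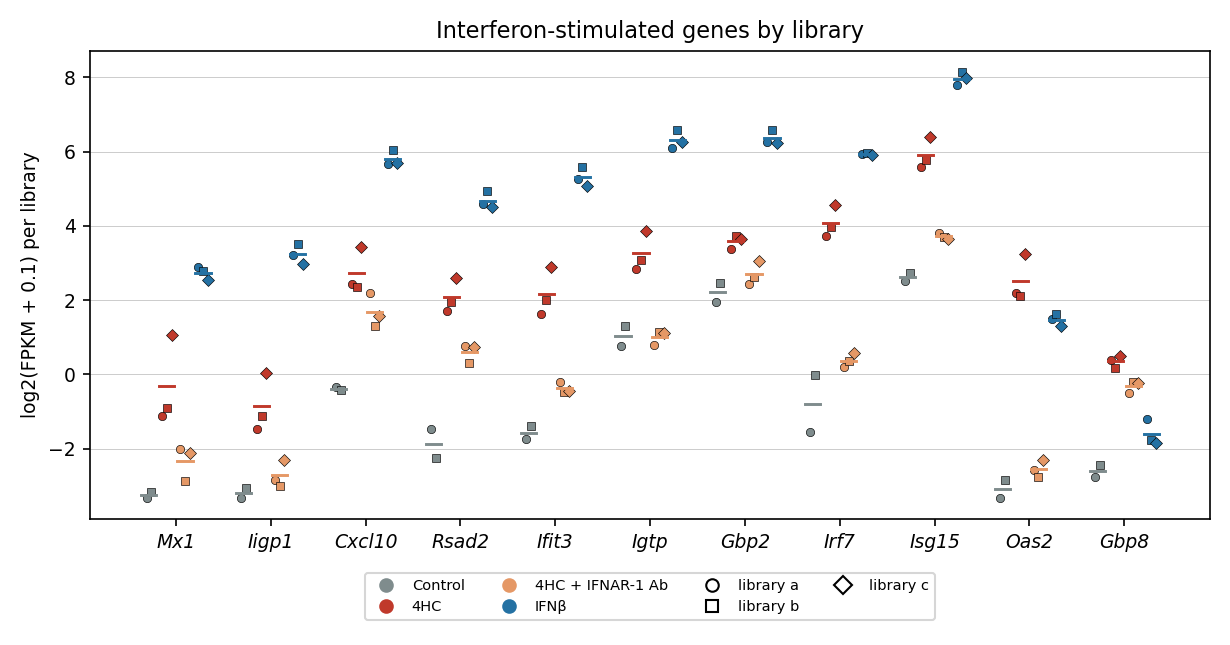
Log2(FPKM + 0.1) of ISGs and GTPase genes in each library, for 2 control, 3 4HC, 3 4HC + IFNAR-1 Ab and 3 IFNβ libraries, marked by colour for the group and by shape for the library, with bars at the mean of the plotted values. Most genes lie higher with IFNβ, with 4HC library c above libraries a and b in most of them, and Oas2 and Gbp8 lie higher with 4HC.

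Interferon-inducible GTPases were mostly higher with IFNβ. These proteins coat and break open the vacuoles of intracellular microbes, and comprise the immunity-related GTPases and the guanylate-binding proteins. Of 17 members 16 were tested, 13 were higher with IFNβ and 1 higher with 4HC, and the median difference was -2.06, or -1.26 with every list gene above 0 counted. In 2 of the 13, Iigp1 and Gm12250, the 4HC mean was under 1 FPKM. The IFNβ mean was under 1 FPKM for the 1 higher with 4HC. In these genes the filter set the direction. Iigp1 had 0.26, 0.36 and 0.928 FPKM with 4HC and 9.23, 11.3 and 7.79 FPKM with IFNβ, 18.3-fold higher and the largest tested difference of the named genes in that direction (log2 -4.09, SE 0.35, limma adjusted p = 4.3e-05). Igtp (Irgm3) had 7.09, 8.36 and 14.4 FPKM with 4HC and 68.6, 95.2 and 77 FPKM with IFNβ (log2 -3.05, SE 0.24). Its control mean of 1.98 FPKM and its mean with 4HC and antibody, 1.94 FPKM, were alike.

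Ifi47, another immunity-related GTPase, showed no excess in 4HC library c, with 6.81, 7.38 and 6.61 FPKM as against 52.5, 67 and 50.2 FPKM with IFNβ (log2 -3.00, SE 0.12, limma adjusted p = 2.3e-06). Gbp2 was much the same, at 10.4, 13.1 and 12.4 FPKM as against 76.9, 96.6 and 75.4 FPKM (log2 -2.78, SE 0.12). Gm12250, also of this family, was 8.73-fold higher with IFNβ. Gbp4 did not pass the test, at 9.08, 10.1 and 13.2 FPKM with 4HC and 11.5, 14.2 and 10 FPKM with IFNβ (log2 -0.14, SE 0.16). Gbp8 was the single member higher with 4HC, at 1.21, 1.04 and 1.31 FPKM as against 0.338, 0.194 and 0.176 FPKM (log2 1.96, SE 0.25, limma adjusted p = 0.00028), both low levels. Guanylate-binding protein genes are close copies in clusters, and how the counting divided reads among them is not given in the sources used here.

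Sensors and signalling factors of the interferon pathway differed less. Of 28 members 26 were tested, 8 were higher with IFNβ and 2 higher with 4HC, with a median of -0.44. Irf7, the factor that amplifies interferon gene transcription, had 13.2, 15.6 and 23.6 FPKM with 4HC and 61.5, 62.8 and 60 FPKM with IFNβ (log2 -1.85, SE 0.18, limma adjusted p = 7.8e-05), from 0.56 FPKM in control cells. Dhx58 (LGP2), a cytosolic RNA sensor, was 4.76-fold higher with IFNβ, at 23.4, 22.6 and 20.4 FPKM as against 4.06, 3.8 and 6.08 FPKM. Tlr3, the endosomal receptor for double-stranded RNA, was also 4.76-fold higher, at 33.8, 38.1 and 30.1 FPKM as against 6.19, 7.19 and 8.06 FPKM. Mavs, the adaptor on mitochondria that the RNA sensors act through, did not pass the test (log2 -0.01, SE 0.08).

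Irf8, a factor best known from myeloid cells, was higher with 4HC at a low level, 1.7, 1.64 and 1.69 FPKM as against 0.325, 0.312 and 0.294 FPKM (log2 2.12, SE 0.18, limma adjusted p = 3.9e-05). Its IFNβ mean was under 1 FPKM, so that the filter set its direction. The receptor subunit Ifnar1 had 4.89, 4.69 and 5.14 FPKM with 4HC and 4.09, 3.81 and 3.76 FPKM with IFNβ, a small difference under the 2-fold bound (log2 0.33, SE 0.09, limma adjusted p = 0.014). The cytokine gene Ifnb1 is not listed above 0 with 4HC or with IFNβ. Trex1, an exonuclease that clears DNA from the cytosol, was 7.38-fold higher with IFNβ. It stood at 22.1, 37.5 and 31.7 FPKM as against 3.93, 3.7 and 4.74 FPKM (log2 -2.83, SE 0.18), and the 4HC mean of 4.13 FPKM was close to the control mean of 3.73 FPKM.

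The machinery of MHC class I presentation was mixed. Of 22 members 17 were tested, 3 were higher with IFNβ and 1 higher with 4HC, with a median of -0.46. The peptide transporter subunit Tap1 had 8.67, 8.02 and 9.77 FPKM with 4HC and 34.1, 44.5 and 34.8 FPKM with IFNβ (log2 -2.08, SE 0.12, limma adjusted p = 1.1e-05). Psmb10, a subunit of the immunoproteasome that cuts peptides for presentation, was 2.79-fold higher with IFNβ. H2-T24, a nonclassical class I gene, lay at the 2-fold bound (log2 -1.03, SE 0.23) and under it without 4HC library a (-0.80) or b (-0.97) or IFNβ library a (-0.94). Other class I chain genes went both ways. H2-Q7 was higher with 4HC, at 14.6, 14.2 and 11.9 FPKM as against 6.11, 5.66 and 4.05 FPKM (log2 1.36, SE 0.15, limma adjusted p = 0.00015). The light chain gene B2m had means of 567 FPKM with 4HC and 320 with IFNβ, and H2-D1 had 288 and 151 FPKM, against control means of 261 and 128 FPKM. Neither was tested. The class I genes are near copies of each other, so their separate levels are uncertain.

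Chemokine genes were divided into a set higher with 4HC and a pair higher with IFNβ. Of 23 chemokines on the list 12 reached 1 FPKM and 9 were tested, of which 7 were higher with 4HC and 2 with IFNβ. In 4 of the 7 and 1 of the 2 the other treatment was under 1 FPKM, so that the filter itself set the direction. The median of 3.95 was 2.61 over genes at 1 FPKM with both treatments, 2.11 with a pseudocount of 1 and 2.08 over all list genes above 0. The pair was Cxcl10 and Cxcl11, ligands of the receptor CXCR3 on activated T cells. Cxcl10 (chr5:92775664-92777915, mm9) had 5.31, 4.97 and 10.6 FPKM with 4HC and 50.5, 65.9 and 51.9 FPKM with IFNβ (log2 -3.07, SE 0.26, limma adjusted p = 4.2e-05). Cxcl11 (chr5:92788570-92792322) had 0.681, 0.769 and 1.3 FPKM with 4HC and 7.75, 6.43 and 2.64 FPKM with IFNβ (log2 -2.40, SE 0.38). IFNβ library c was the lowest of its group for Cxcl11 and still above every 4HC library.

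The genes on the other side attract neutrophils, monocytes and lymphocytes. Ccl20, the ligand of CCR6 (chr1:83113340-83115742, mm9), had the largest tested difference of the named genes, with 34.7, 31.1 and 34.2 FPKM with 4HC and 0.48, 0.356 and 0.288 FPKM with IFNβ (log2 6.16, SE 0.15, limma adjusted p = 3.6e-07). The means differed 89-fold, and the control mean was 1.25 FPKM. The filter set the direction of Ccl20, as of Cxcl3 below, since the IFNβ means were under 1 FPKM. Cxcl1 (chr5:91320270-91322141), a neutrophil attractant, had recovered levels of 164, 151 and 160 FPKM with 4HC and 3.4, 3.09 and 4.07 FPKM with IFNβ, and Cxcl5 had means of 140 and 1.93 FPKM. Neither was tested. Cxcl3, from the same cluster on chromosome 5, was 50.3-fold higher with 4HC, at 3.72, 3.98 and 5.97 FPKM as against 0.0597, 0.0702 and 0.142 FPKM.

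Thus chemokine genes of one region of chromosome 5 went in opposite directions, Cxcl1, Cxcl3 and Cxcl5 towards 4HC and Cxcl10 and Cxcl11 towards IFNβ. Ccl5 (RANTES), which is often counted among ISGs, was 16.5-fold higher with 4HC, at 56.9, 43.1 and 44.1 FPKM as against 3.63, 2.83 and 2.28 FPKM with IFNβ, and its mean with 4HC and antibody, 46.6 FPKM, was close to the 4HC mean of 48 FPKM. Ccl2, the main monocyte attractant, was 6.36-fold higher with 4HC. Cx3cl1, a membrane-bound chemokine, had the smallest difference of the 7, with 14, 10.9 and 9.35 FPKM as against 3.38, 3.52 and 4.03 FPKM (log2 1.61, SE 0.15). Ccl3 had 1.48, 1.19 and 1.5 FPKM with 4HC and is listed at 0 in all 3 IFNβ libraries and in the control, so no fold is given.

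Among cytokines and growth factors, 8 of 20 tested genes were higher with 4HC, 4 of them under 1 FPKM with IFNβ, and 1 with IFNβ, with a median of 0.71. The 1 higher with IFNβ was under 1 FPKM with 4HC. In all of these, Il1a, Csf2 and Tnf among them, the filter set the direction. Il1a, which encodes the alarmin IL-1α, had 40.6, 41.7 and 41.7 FPKM with 4HC and 0.78, 0.603 and 0.365 FPKM with IFNβ (log2 5.97, SE 0.20, limma adjusted p = 1.8e-06). Csf2, the gene of GM-CSF, had 8.05, 9.13 and 7.03 FPKM with 4HC and 0.0785, 0.115 and 0 FPKM with IFNβ (log2 5.70, SE 0.28). Tnf was low with both treatments but higher with 4HC, 1.49, 1.95 and 1.49 FPKM as against 0.0736, 0.0144 and 0.0349 FPKM. Csf3, the gene of the granulocyte factor G-CSF, had recovered levels of 134, 121 and 107 FPKM with 4HC and 6.91, 4.65 and 4.08 FPKM with IFNβ, with no test. Tnfsf9, the ligand of the T cell costimulator 4-1BB, did not pass the test (log2 0.03, SE 0.13). In control cells the means of Il1a, Csf2, Tnf and Csf3 were 1.35, 0.169, 0.0603 and 11.8 FPKM, all well below the 4HC libraries.

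Some genes of the NF-κB pathway and its targets were higher with 4HC. Of 18 tested members 6 were called so and none with IFNβ, as against 11.1% and 3.86% of all tested genes. In 3 of the 6, Nos2 and Ptges among them, the IFNβ mean was under 1 FPKM, so that the filter set the direction. Another 7 did not pass the adjusted p and 1 passed it on the side of IFNβ at under 2-fold, with a median of 0.54. Nos2, the inducible nitric oxide synthase, had 9.94, 8.12 and 9.75 FPKM with 4HC and 0.417, 0.961 and 0.354 FPKM with IFNβ (log2 3.89, SE 0.29, limma adjusted p = 2.4e-05). The adhesion molecule gene Icam1 had 12.7, 10.2 and 11.4 FPKM as against 1.68, 1.82 and 1.32 FPKM (log2 2.76, SE 0.14). Nfkbiz, whose product IκBζ is a nuclear coactivator of secondary NF-κB targets, was 4.35-fold higher, and Ptges, the prostaglandin E synthase, 13.51-fold. Nfkb1, which encodes the p105/p50 subunit, had 18.6, 19.5 and 18.3 FPKM with 4HC and 19.3, 19.2 and 18.8 FPKM with IFNβ (log2 -0.02, SE 0.07).

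Of 19 acute phase and complement genes in the table, 12 were under 1 FPKM with both treatments and 4 were tested. All 4 were under 1 FPKM with IFNβ and were taken up only through their level with 4HC, so that their direction was fixed by the filter and their values are a description. Saa3, a serum amyloid A made outside the liver, had 19, 12.6 and 24.2 FPKM with 4HC and 0.115, 0.314 and 0.271 FPKM with IFNβ (log2 5.81, SE 0.29). Serpina3g, an inhibitor of cysteine proteases, was 17.6-fold higher and the complement protease gene C1ra 4.83-fold. Lcn2 (lipocalin-2), which keeps iron from bacteria, had recovered levels of 456, 328 and 280 FPKM with 4HC and 5.7, 7.73 and 2.03 FPKM with IFNβ. C3, the central complement component, had means of 67.6 and 1.33 FPKM. Slpi, an inhibitor of leukocyte proteases, had 136, 105 and 83.1 FPKM with 4HC and 2.38, 3.89 and 1.97 FPKM with IFNβ. These 3 were not tested.

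**Figure D4:**
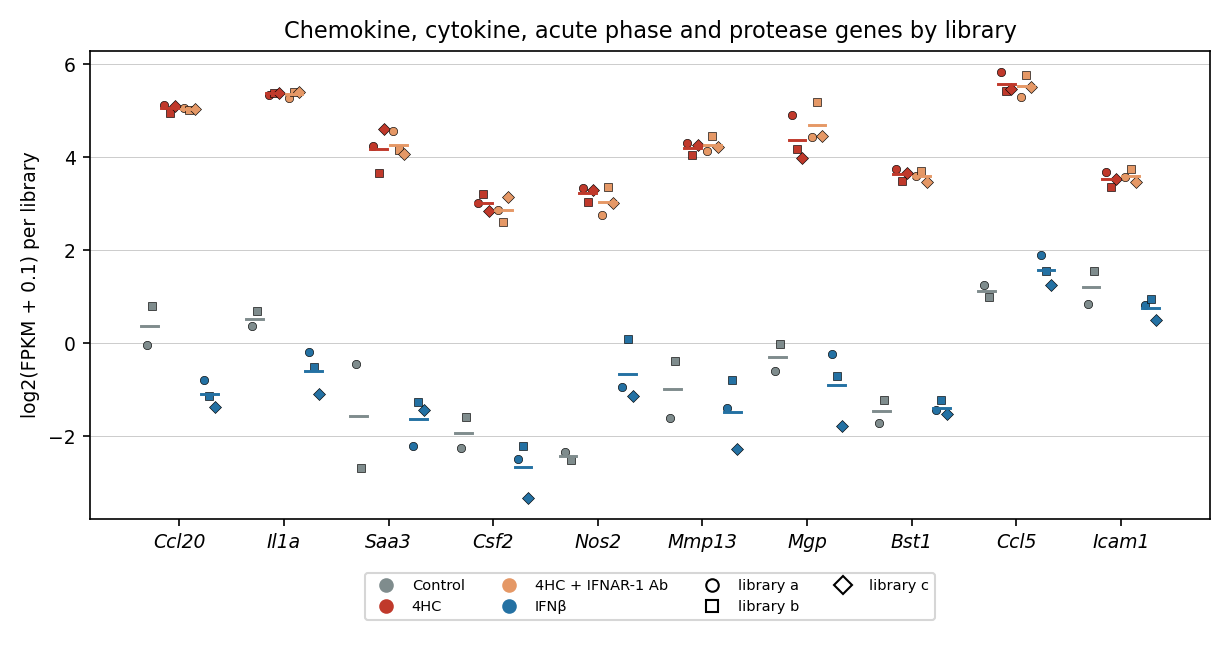
Log2(FPKM + 0.1) of 10 chemokine, cytokine, acute phase, protease and related genes in each library, for 2 control, 3 4HC, 3 4HC + IFNAR-1 Ab and 3 IFNβ libraries, marked by colour for the group and by shape for the library, with bars at the mean of the plotted values. All 10 lie higher in every 4HC library than in any IFNβ library, and Ccl20 has the widest gap.

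Genes of the extracellular matrix and its proteases were likewise higher with 4HC, 8 of 12 tested and none with IFNβ, with 5 of the 8 under 1 FPKM with IFNβ. In these 5, Mmp13 and Mmp10 among them, the filter set the direction. The median of 1.59 was 0.92 over genes at 1 FPKM with both treatments and 0.78 over all list genes above 0. Among the matrix metalloproteinases, the collagenase gene Mmp13 had 19.7, 16.5 and 19.2 FPKM with 4HC and 0.28, 0.481 and 0.108 FPKM with IFNβ (log2 5.69, SE 0.32, limma adjusted p = 9.1e-06). The stromelysin gene Mmp3 had 40.7, 32.5 and 40.7 FPKM as against 1.22, 1.73 and 0.705 FPKM, and Mmp10 was 15.4-fold higher. The gelatinase gene Mmp9 had means of 51.3 and 3.85 FPKM with no test.

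Outside these lists, Mgp, an inhibitor of matrix calcification, had 30.1, 18.1 and 15.7 FPKM with 4HC and 0.744, 0.517 and 0.193 FPKM with IFNβ (log2 5.27, SE 0.38). Bst1 (CD157), a cell surface enzyme that makes cyclic ADP-ribose, had 13.3, 11.2 and 12.6 FPKM as against 0.269, 0.326 and 0.247 FPKM (log2 5.03, SE 0.14, limma adjusted p = 4.4e-07). Both Mgp and Bst1 were under 1 FPKM with IFNβ, so that the filter set their direction and their values are a description. Of the immune ligands, the checkpoint ligand gene Cd274 (PD-L1) was higher with IFNβ, at 3.8, 5.26 and 4.1 FPKM as against 1.65, 1.42 and 2.06 FPKM with 4HC (log2 -1.31, SE 0.17, limma adjusted p = 0.00028). Pvr (CD155), a ligand of the receptors DNAM-1 and TIGIT, was 2.99-fold higher with 4HC, while its relative Pvrl2 did not pass the test (log2 -0.09, SE 0.10). Nt5e (CD73), which makes adenosine from AMP, had recovered levels of 48.1, 43.8 and 43.1 FPKM with 4HC and 13.4, 12.3 and 10.3 FPKM with IFNβ.

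Genes of the integrated stress response made the call in a different way. Their summed level was lowest with IFNβ and was not above the 72 h control with 4HC. In this response eIF2α phosphorylation raises translation of the factor ATF4, which turns on genes of amino acid supply and of cell death. Of 14 tested members 11 were higher with 4HC, 1 of them under 1 FPKM with IFNβ, and none with IFNβ, and the median was 1.396. Over all 24 genes, however, the summed level was 1290.8 FPKM in control cells, 1034.9 with 4HC, 594.5 with IFNβ and 931.1 when the antibody was added to 4HC. The IFNβ libraries were unequal. The tested members summed to 133 FPKM in library a, 42.4 in b and 38.7 in c, and to 278, 315 and 286 FPKM in the 4HC libraries. Without IFNβ library a, 12 of the 14 were called higher with 4HC, and likewise without IFNβ library c or without 4HC library a or c.

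Chac1, an enzyme that degrades glutathione, had 14.9, 18 and 20 FPKM with 4HC, a control mean of 22.3 FPKM, and 5.53, 0.455 and 0.625 FPKM with IFNβ. The difference was 3.74 (SE 0.73, limma adjusted p = 0.0023), 4.79 without IFNβ library a and 3.12 without IFNβ library b. Nupr1, a small stress-induced nuclear protein, had 96.6, 104 and 96.5 FPKM with 4HC and 37.9, 8.18 and 6.13 FPKM with IFNβ (log2 2.99, SE 0.56), with 3.79 without IFNβ library a and 2.48 without c. Ddit3 (CHOP), a transcription factor of stress-induced death, had 34.6, 45.9 and 39.6 FPKM as against 17.1, 2.93 and 3.84 FPKM (log2 2.76, SE 0.54), with 3.53 without IFNβ library a and 2.28 without b. In all 3 genes IFNβ library a lay well above b and c and below each 4HC library. Atf4 itself had recovered levels of 107, 108 and 100 FPKM with 4HC and 76.6, 47.2 and 43.5 FPKM with IFNβ, against a control mean of 179.1 FPKM.

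The C/EBP-ATF response element (CARE), to which ATF4 with a C/EBP partner binds, has the letters TGATGNAA, in reverse TTNCATCA. Ddit3, Trib3, Sesn2 and Ppp1r15a were searched for them and gave no match or had no promoter sequence. The letters could be read upstream of other stress response genes, printed here as above with the match in capitals:
Chac1 (chr2:119351038-119351067, plus strand): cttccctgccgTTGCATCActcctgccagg
Nupr1 (chr7:126625562-126625591, minus strand): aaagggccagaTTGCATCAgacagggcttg
Atf3 (chr1:191183425-191183454, minus strand): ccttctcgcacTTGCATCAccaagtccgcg
The letters were in 33 of the 790 genes higher with 4HC (4.18%), in 6 of the 228 higher with IFNβ (2.63%), in 2.33% of tested genes and in 3.91% of the 27025 promoters. At 4-fold they were in 11 of 180 (6.11%) and 0 of 27.

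Endoplasmic reticulum chaperones as a list did not lean either way, with 3 of 11 tested higher with 4HC (11.1% of all tested genes were), none with IFNβ and a median of 0.06. The 3 were Herpud1, Dnajb9 and Xbp1, the last under the 2-fold bound without IFNβ library c (0.89). Herpud1, which takes part in degradation of misfolded proteins, followed the stress response genes, with 20, 17.9 and 18.2 FPKM as against 7.66, 2.14 and 1.82 FPKM (log2 2.54, SE 0.44), with 3.18 without IFNβ library a and 2.17 without c. Calr (calreticulin), a chaperone that dying cells can expose on their surface, had recovered levels of 123, 122 and 113 FPKM with 4HC and 121, 127 and 107 FPKM with IFNβ.

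Clock genes included another set in which IFNβ library a stood apart. Of 12 tested, 6 were higher with 4HC and none with IFNβ, with a median of 0.94. In 2 of the 6, Arntl among them, the IFNβ mean was under 1 FPKM. Arntl (BMAL1), the positive arm of the clock, had 4.47, 4.36 and 5.05 FPKM with 4HC and 1.16, 0.933 and 0.744 FPKM with IFNβ (log2 2.19, SE 0.16, limma adjusted p = 2.5e-05). Ciart, a repressor of the clock, had 10.1, 12.3 and 12.5 FPKM as against 8.43, 2.22 and 1.57 FPKM (log2 1.86, SE 0.50), with 2.57 without IFNβ library a and 1.39 without c. Clock, the partner of BMAL1, did not pass the test (log2 -0.26, SE 0.15) except without 4HC library c (log2 -0.41, limma adjusted p = 0.021). The cultures were collected at different times after exposure, and the hour of the day is not given in the sources used here.

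**Figure D5:**
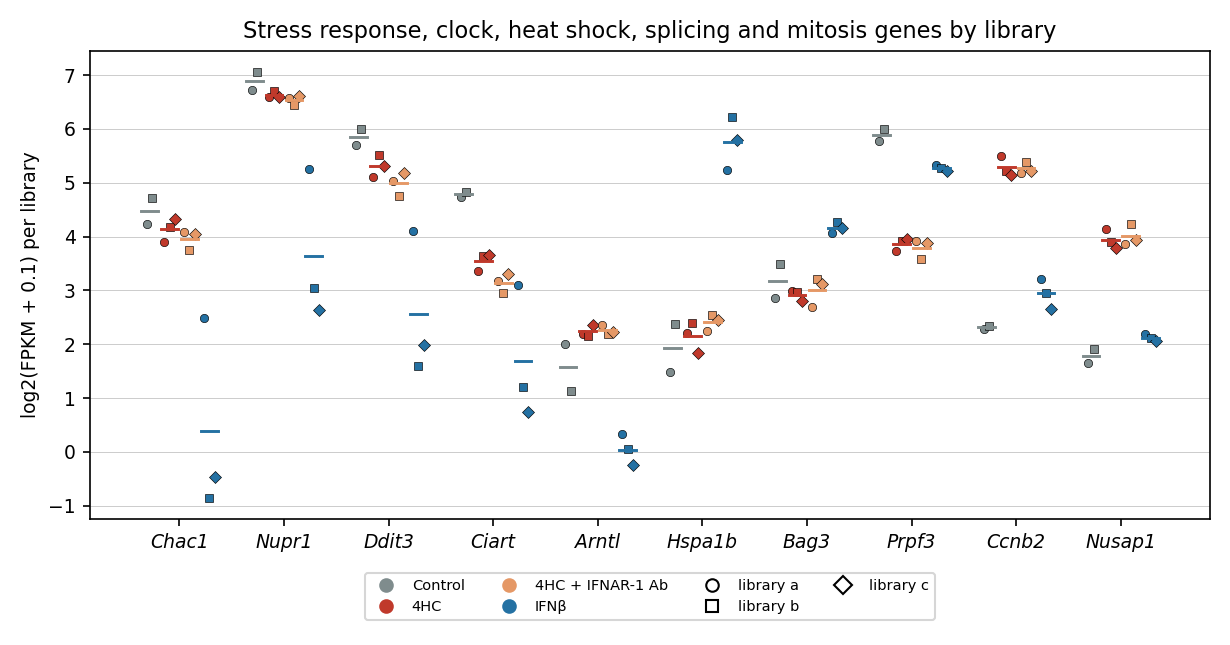
Log2(FPKM + 0.1) of stress response, clock, heat shock, splicing and mitosis genes in each library, for 2 control, 3 4HC, 3 4HC + IFNAR-1 Ab and 3 IFNβ libraries, marked by colour for the group and by shape for the library, with bars at the mean of the plotted values. Chac1, Nupr1, Ddit3 and Ciart are higher in IFNβ library a than in b and c, and Hspa1b is higher in every IFNβ library than in any 4HC library.

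Some heat shock genes were higher with IFNβ. Of 11 tested, 3 were called so and none higher with 4HC. At any size 6 passed the adjusted p on the side of IFNβ (27.4% of all tested genes did), 1 on that of 4HC (33.1% did) and 4 on neither, with a median of -0.78. Hspa1b, the inducible Hsp70, was the foremost, with 37.5, 74.8 and 55.3 FPKM with IFNβ, 4.55, 5.15 and 3.46 FPKM with 4HC and a control mean of 3.9 FPKM (log2 -3.60, SE 0.24, limma adjusted p = 1.8e-05). Bag3, an Hsp70 cochaperone, was 2.4-fold higher with IFNβ. The constitutive Hsc70 gene Hspa8 had means of 2712 FPKM with IFNβ, 730 with 4HC and 315 in control cells, and Dnaja1 had recovered levels of 43.1, 53.3 and 41.9 FPKM as against 19.3, 21.3 and 18.2 FPKM. Neither was tested. The small heat shock protein gene Cryab did not pass the test (log2 -0.01, SE 0.11).

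Ribosome biogenesis genes were higher with IFNβ by a small and even margin. Of 30 tested, 27 passed the adjusted p on that side (27.4% of all tested genes did), 7 of them at 2-fold, and none passed on the side of 4HC. The median was -0.74. Summed over 41 genes, the level was 2258.8 FPKM in control cells and 2445.6 with IFNβ, but 1547.7 with 4HC and 1447.5 with 4HC and antibody. Rrp12, known from yeast as a factor in export of ribosomal subunits, had 5.31, 6.5 and 8.14 FPKM with 4HC and 13.4, 15.3 and 17.2 FPKM with IFNβ (log2 -1.21, SE 0.16). Bop1, which takes part in ribosomal RNA processing, did not pass the test (log2 -0.13, SE 0.11). Genes of mRNA splicing had the same order of groups, with sums of 2852.8 FPKM in control cells, 2758.0 with IFNβ and 1870.5 with 4HC. Of 27 tested, 21 passed on the side of IFNβ, 3 of them at 2-fold, and the median was -0.51. The 3 became 7 without 4HC library b and 1 without 4HC library a or c, when Sf3a2 (-0.99 and -0.98) and U2af1 (-0.99 and -0.99), both of the U2 branch point machinery, came under the bound. Sf3a2 was also under it without IFNβ library a (-0.96). Prpf3, of the U4/U6 particle, had 13.2, 14.9 and 15.3 FPKM with 4HC and 39.9, 38.4 and 37.2 FPKM with IFNβ, against a control mean of 59.3 FPKM (log2 -1.41, SE 0.08).

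Mitotic genes were higher with 4HC. Of 26 tested, 25 passed the adjusted p on that side (33.1% of all tested genes did), 10 at 2-fold, and none on the other, with a median of 0.97. The sum over 43 genes was 322.9 FPKM in control cells, 586.9 with IFNβ, 1113.0 with 4HC and 1151.4 with 4HC and antibody. Ccnb2, a cyclin of mitotic entry, had 45.2, 37.3 and 35.1 FPKM with 4HC and 9.21, 7.62 and 6.23 FPKM with IFNβ (log2 2.34, SE 0.15, limma adjusted p = 1.6e-05). Nusap1, a spindle protein, had 17.5, 14.8 and 13.8 FPKM as against 4.47, 4.21 and 4.07 FPKM (log2 1.82, SE 0.10). The proliferation marker Mki67 had recovered levels of 19.8, 21.6 and 23.5 FPKM with 4HC and 17.2, 12.2 and 16.4 FPKM with IFNβ, against 4.03 FPKM in control cells. Incenp, of the chromosomal passenger complex, had overlapping levels of 32.2, 27.7 and 29.2 FPKM and 29.8, 29.3 and 31.4 FPKM.

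DNA replication genes were called in neither direction. Of 34 tested, none reached 2-fold with limma, 13 passed the adjusted p on the side of IFNβ and 5 on that of 4HC, as against 27.4% and 33.1% of all tested genes, and the median was -0.18. Rfc3, of the clamp loader, was among the largest differences, with 15.5, 16.8 and 15.7 FPKM with 4HC and 27.6, 31.2 and 27.5 FPKM with IFNβ (log2 -0.84, SE 0.08, limma adjusted p = 7.6e-05). The helicase gene Mcm5 had recovered levels of 35.6, 33 and 39.8 FPKM as against 57.2, 65.2 and 66.3 FPKM. Genes of crosslink and homologous repair, the pathways that remove the lesions of cyclophosphamide, were near even, with a median of -0.03 that turned sign under 5 alternatives (to 0.068 at most), 3 of 35 higher with 4HC and 1 with IFNβ. The 3 were Ercc1, a nuclease subunit that unhooks crosslinks (log2 1.13, SE 0.08), Ube2t, the E2 enzyme of the Fanconi pathway (log2 1.03, SE 0.10), and the checkpoint kinase gene Chek2 (log2 1.03, SE 0.12). Without 4HC library a only 1 of the 3 stayed past the 2-fold bound, with Ube2t at 0.93 and Chek2 at 0.98. Chek2 was also under it without 4HC library b (0.99) or IFNβ library c (0.97). The nuclease and helicase gene Dna2 was the one higher with IFNβ (log2 -1.25, SE 0.23).

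Of 19 tested p53 targets 6 were higher with 4HC and 1 with IFNβ, with a median of 0.38, as against 11.1% and 3.86% of all tested genes. In 2 of the 6, Trp53inp1 and Psrc1, the IFNβ mean was under 1 FPKM. Cdkn1a, the cyclin-dependent kinase inhibitor p21, had 3.75, 3.27 and 3.6 FPKM with 4HC and 1.33, 1.32 and 0.953 FPKM with IFNβ (log2 1.497, SE 0.15, limma adjusted p = 9.2e-05), from 1.65 FPKM in control cells. Trp53inp1, a p53-induced factor of autophagy and cell death, was 8.66-fold higher with 4HC, and Psrc1, which is also a spindle protein, 4.07-fold. Bax, the mitochondrial pore protein of apoptosis, did not pass the test (log2 0.03, SE 0.08). Gadd45a, which ATF4 also induces, had recovered levels of 74.1, 74.6 and 58.1 FPKM with 4HC and 19.6, 5.84 and 4.69 FPKM with IFNβ against a control mean of 74.5 FPKM, so that here too IFNβ library a was the highest of its group.

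The metabolic lists had medians nearer to that of all genes. Cholesterol biosynthesis had a median of -0.17, with 2 of 22 tested genes higher with 4HC, Insig1 (log2 1.03, SE 0.14) and Tm7sf2 (log2 1.47, SE 0.16). Tm7sf2 was under 1 FPKM with IFNβ, and 11.1% of all tested genes were called higher with 4HC. Insig1 was under the 2-fold bound without 4HC library a (0.94) or IFNβ library b (0.90). Hypoxia and glycolysis genes had a median of 0.12 over 25 genes, -0.087 at 5 FPKM and 0.57 over the 17 tested, of which 7 were higher with 4HC, among them hexokinase Hk2 (2.7-fold) and the oxygen-dependent hydroxylase Egln3 (2.92-fold). In 2 of the 7 the IFNβ mean was under 1 FPKM, and 11.1% of all tested genes were called higher with 4HC. Detoxification and NRF2 targets had a median of -0.25 and went both ways, 2 higher with 4HC and 3 with IFNβ of 16. The 2 higher with 4HC, Aldh3a1 and Gstm1, were under 1 FPKM with IFNβ, so that the filter set their direction. Aldh3a1, an aldehyde dehydrogenase that can oxidise the aldehyde form of activated cyclophosphamide, had 10.7, 7.2 and 9.53 FPKM with 4HC and 0.446, 0.207 and 0.901 FPKM with IFNβ (log2 4.05, SE 0.37, limma adjusted p = 5.8e-05). Gstm1, a glutathione S-transferase, was 6.69-fold higher with 4HC, and the sulfiredoxin gene Srxn1 3.13-fold higher with IFNβ.

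Of 18 tested immediate early and growth factor response genes 3 were higher with 4HC and 1 with IFNβ, with a median of 0.44. The shares over all tested genes were 11.1% and 3.86%. In 1 of the 3, Fos, the IFNβ mean was under 1 FPKM. Fos, a partner in the AP-1 dimer, had 2.73, 2.75 and 2.47 FPKM with 4HC and 0.3, 0.125 and 0.0964 FPKM with IFNβ (log2 3.40, SE 0.28, limma adjusted p = 3.7e-05), while its relative Fosl2 did not pass the test (log2 -0.02, SE 0.09). Klf4, a factor of epithelial differentiation, was 2.83-fold higher with 4HC.

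Markers of cell type were examined with the same comparison. Of 17 epithelial markers 15 reached 1 FPKM, and the sum over the 17 was 486.4 FPKM in control cells, 783.1 with 4HC and 618.3 with IFNβ. Epcam (log2 1.06, SE 0.24) and the basal keratin gene Krt17 (log2 1.48, SE 0.29) were higher with 4HC, though Epcam was under the 2-fold bound without 4HC library a (0.95) or b (0.87) or IFNβ library c (0.93). Krt17 was under 1 FPKM with IFNβ, so that the filter set its direction. Krt14 lay just under the bound on the side of IFNβ (log2 -0.96, SE 0.12) and past it without 4HC library a (-1.08) or IFNβ library a (-1.05). Of 9 mesenchymal markers 6 reached 1 FPKM and 4 were tested, with 1 called higher with 4HC, none with IFNβ and a median of 0.51. The called gene was Zeb2, 2.51-fold higher with 4HC. S100a4 passed the adjusted p at under 2-fold (log2 0.46), and Twist1 did not pass it (log2 -0.003, SE 0.09). The mesenchymal intermediate filament gene Vim had means of 360 FPKM with 4HC and 84.8 with IFNβ, and was not tested. Of 17 leukocyte markers 3 reached 1 FPKM, Cd14, Cd68 and S100a8, and all 3 were higher with 4HC, 1 of them under 1 FPKM with IFNβ. Summed over the 17, the level was 3.8 FPKM in control cells, 17.7 with 4HC, 3.2 with IFNβ and 18.6 when the antibody was added to 4HC, while 7 of the 17 are listed at 0 with 4HC and 11 with IFNβ. Of 12 fibroblast and endothelial markers only Pdgfra reached 1 FPKM (log2 2.67, SE 0.18). It did so with 4HC and not with IFNβ, so that the filter set its direction. The part of these markers in the other differences was not tested.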

How the data were processed

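RNA-seq (poly(A), stranded) of 4T1 cells was processed by the authors with TopHat2, featureCounts and edgeR on mm9, per the submitters' processing notes; neither versions nor the strand setting of the counting is given in the sources used here. The deposited values are mean FPKM per group. The table's other columns, the authors' comparisons (ratios, fold changes, p-values), were not used. Single-library FPKM were recovered from the means as whole reads over library sizes read from receptor genes at 1 read; the step was tested on simulated data. Log2(FPKM + 0.1) of 6 libraries was tested with limma 3.58.1 (R 4.3.3, trended variance) with Benjamini-Hochberg adjustment over 9516 genes, calling an adjusted p below 0.05 and 2-fold. The planned comparison of group means is quoted as an alternative. Alternatives were other pseudocounts, filters, size bounds, centring and each library left out. Those added after seeing the data are genes with several answers, no trend, and libraries left out of the range between 4HC and 4HC with antibody. Named genes are the 12 largest differences each way at 5 FPKM, up to 4 largest and the nearest to 0 of each list, and fixed genes of the study; some of these genes are not reported here. Atf3, B2m, Bst2, Ccl2, Ccl3, Ccl5, Cxcl2, Gbp8, H2-D1, Il6, Irgm2, Isg15, Oas1a, Oas1b, Oas1g, Oas2, Oas3, Oasl2 and Zbp1 were chosen after their values were seen. For Oas1b, Oas1g, Oas3 and Oasl2 no values with a library left out are given. Members and lists were chosen with earlier results of these data known. The labels number the samples as replicates of 1 line and the study's methods call them independent cultures, so p-values measure the spread between cultures.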

Additional observations from a re-analysis of the deposited data

How the results depend on the processing

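The count of genes higher with 4HC (1059) was 563 with a pseudocount of 1, 1695 over all genes above 0, 441 at 5 FPKM and 594 at 1 FPKM in both groups, and 2036, 446 and 265 at 1.5, 3 and 4-fold. The count higher with IFNβ (367) was 224 with a pseudocount of 1, and 1251, 106 and 61 at 1.5, 3 and 4-fold. Leaving out 1 library at a time gave 981 to 1192 and 349 to 416 genes, and the other alternatives, among them both centrings and the group means alone (1150 and 397), stayed within 1.5 times. The width of the central 95% range between 4HC and 4HC with antibody (0.65) was 0.52 with a pseudocount of 1, 0.92 above 0, 0.72 at 0.5 FPKM, 0.57 at 5 FPKM, 0.60 at 1 FPKM in both groups, 0.60 without small RNA rows, and 0.69 to 0.81 with 1 library left out. The median of all genes turned to -0.0266 at 5 FPKM. Medians that moved by over 1.5 times or turned sign are given with the chemokine, GTPase, matrix, hypoxia and repair lists, and the acute phase median (3.76) ranged from 2.35 to 5.56; medians of leukocyte and fibroblast markers (2.64 and 2.68) were 1.62 and 1.60 with a pseudocount of 1 and 0.58 and 0.24 over all list genes above 0. All 94 named genes past the adjusted p, of 111 tested, stayed past it under each alternative in which they were tested. The filter of 1 FPKM in both groups kept only 81 of the 111, and that of 5 FPKM kept 84. Genes outside these filters had no test there. Calls that crossed the 2-fold bound with 1 library left out stand beside those genes, except Hsd17b7 (-0.996), which passed it without 4HC library a (-1.01) or c (-1.13) or IFNβ library a (-1.02) or b (-1.02), and with a pseudocount of 0.01 or either centring (-1.03 to -1.01). With a pseudocount of 1 the genes Adm (0.61), Cd274 (-0.99), Chek2 (0.80), Dna2 (-0.82), Gbp8 (0.82), H2-T24 (-0.80), Insig1 (0.96), Krt17 (0.73), Oas2 (0.86), Sf3a2 (-0.98), Tm7sf2 (0.92), Ube2t (0.95), Xbp1 (0.97) and Zeb2 (0.91) fell under it. Leaving out 1 library turned the sign of 13 genes near 0, with ranges of Bax -0.027 to 0.082, Cryab -0.061 to 0.091, Fancg -0.116 to 0.069, Fosl2 -0.094 to 0.014, Gsto1 -0.073 to 0.018, Lgals3bp -0.018 to 0.142, Mavs -0.044 to 0.019, Pvrl2 -0.161 to 0.0052, Rpa3 -0.125 to 0.089, Srebf2 -0.137 to 0.026, Tnfsf9 -0.060 to 0.141, Twist1 -0.068 to 0.051 and Zbp1 -0.432 to 0.032. No paired analysis was possible because the recovered libraries carry no replicate number. Genes low in one group rest on few reads, and most genes with several answers were abundant and carry no test.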
